A study of Homo sapiens with 6 samples.

Results

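The caveolin and cavin genes CAV1, CAV2, CAVIN1 and CAVIN3 were examined in Calu-6, an established cell line that was derived from a lung carcinoma. The 4 genes were chosen on their summed counts and on the shares of their transcript models in these same 6 libraries, CAV1 above all. Of the 4 genes, 3 had rows in the count table, and they held 10 of its 21472 transcript models and stood among its 10072 genes. In the control group (siControl, n = 3 libraries) the cells had been transfected with 10 nM of a non-silencing siRNA for 48 h. In the other group (siDelta2-4, n = 3 libraries) the siRNA was directed at the junction of exons 1 and 5 in the Delta 2-4 splice variant of TERT, the catalytic subunit of telomerase, at the same 10 nM and 48 h. Both groups were transfected with the same reagent (RNAiMAX), and all 6 libraries were pooled on a single flow cell. The sample labels gave the genotype as WT, while the column names of the count table carried the word Empty, which the methods of the study use for cells with an empty Flag-V5 vector. This difference could not be settled from the labels. TERT had 0 rows in the table, so the knockdown itself was not checked here.

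Caveolae are small flask-shaped pits of the plasma membrane. Their coat is built from caveolin 1, with caveolin 2 as its partner, and from cavins, among which cavin 1 is needed for the pits to form. They take part in endocytosis, in lipid handling and in buffering of membrane tension. CAV1 encodes a long form of caveolin 1, called alpha, and a short form, called beta, which starts at an internal start codon and lacks the residues at the amino terminus. CAV2 encodes a caveolin that depends on caveolin 1 for its transport to the cell surface. CAVIN3 encodes a cavin that binds cavin 1.

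The siControl libraries held 1037468 to 1106413 counts of long cDNA reads and the siDelta2-4 libraries held 1070009 to 1309241. Within a group each library is named by its total (highest, middle or lowest), because the labels carried no number that matched those of the columns. The paper calls the libraries of a group biological replicates, while the sample labels do not say how the cultures were kept apart. The siControl library of lowest total stood apart from its group. Over genes, the chi-square per degree of freedom between its counts and those of the other siControl libraries was 3.18 and 2.41, against 2.74 to 3.10 with the siDelta2-4 libraries and 1.64 between the other siControl libraries. Within siDelta2-4 it was 1.38 to 1.65. Without this library the log2 fold change of CAV1-201 was 1.29, and the upstream share in CAV1 differed by 24.2 percentage points. Of 7 epithelial marker genes 5 had rows. KRT18 ranged from 162 to 231 counts and KRT8 from 114 to 171, EPCAM had 1 to 3 counts, and CDH1 had none. None of 6 lung alveolar and airway markers, 6 endothelial markers or 7 muscle and fat markers had a row. Of 6 fibroblast markers only LUM had one, with 1 to 5 counts, and 3 of 5 blood markers had rows, with 2 to 7 counts in sum.

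CAV1 (ENSG00000105974.13) lies on chromosome 7 of GRCh38, plus strand, from 116524994 to 116561179. Gencode annotates 9 CAV1 transcripts, of which 5 were counted. The most counted were CAV1-202, with 138 of the 238 CAV1 counts, CAV1-201 with 74 and CAV1-203 with 22. CAV1-201 (2456 bases, 3 exons) begins at 116525036 and has 178 codons from an upstream start codon at 116525063, so it encodes the alpha form. CAV1-202 (2628 bases, 2 exons) begins at 116526293 and CAV1-203 (845 bases, 3 exons) at 116526277. Both have 147 codons from a downstream start codon at 116526588 and so encode the beta form, which is 31 codons shorter. The 2 beta models begin 16 bases apart and 1241 bases or more downstream of CAV1-201. They differ in an intron of 136 bases (chromosome 7, 116526389 to 116526524), which is kept in CAV1-202 and spliced out in CAV1-203, and at the 3′ end, where CAV1-202 runs 1663 bases further along the chromosome.

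As annotated, the 3 models differ in what precedes a shared stretch of exon. The only junction of CAV1-202 (116526689 to 116558946) is also in CAV1-201 and CAV1-203. A read of either that began inside the shared stretch would hold no junction that sets it apart from CAV1-202. Where reads began is not given, so how many such reads were counted as CAV1-202 was not tested. The 30 bases around the start of the shared stretch are shown for each model, from the Gencode transcripts on GRCh38, plus strand. Capitals mark the first 15 bases from 116526525, which all 3 models share, and lower case marks the 15 bases before them. In CAV1-201 these come from the coding end of exon 1 (116525078 to 116525092), in CAV1-202 from the unspliced intron (116526510 to 116526524), and in CAV1-203 from the end of its own first exon (116526374 to 116526388).
CAV1-201: tacgtagactcggagGGACATCTCTACACC
CAV1-202: ctccgccctctgcagGGACATCTCTACACC
CAV1-203: gtagctgtcggagcgGGACATCTCTACACC

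The start codons that separate alpha from beta are shown next, with ATG in capitals. The upstream line is the whole coding part of exon 1 of CAV1-201 (chromosome 7, 116525063 to 116525092), and the downstream line covers 116526576 to 116526605, inside the exon that all 3 models share. In the spliced CAV1-201 the start codons are 93 bases apart and in the same reading frame, so the downstream codon is present in the alpha message too.
Upstream start codon: ATGtctgggggcaaatacgtagactcggag
Downstream start codon: aacaacaaggccATGgcagacgagctgagc

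**Figure D1:**
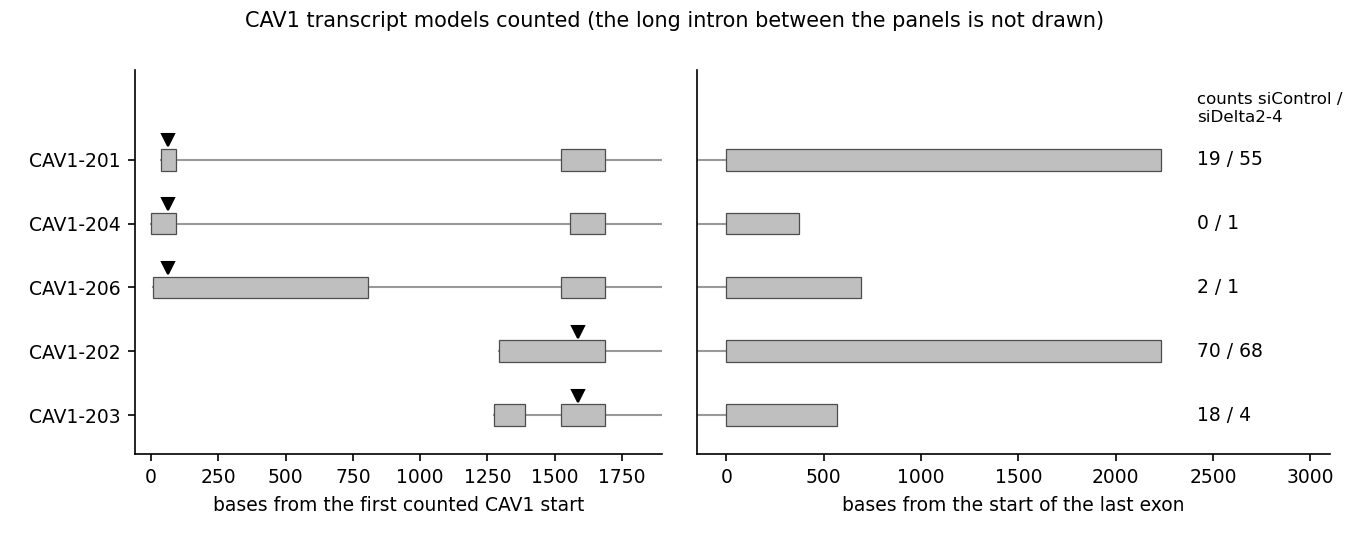
Exons of the 5 counted CAV1 models, drawn to scale as grey boxes on a horizontal axis of bases from the first counted start (left) and from the start of the last exon (right), with the annotated start codon of each model as a black triangle. The numbers at the right are summed counts in the 3 siControl and the 3 siDelta2-4 libraries, 19 and 55 for CAV1-201, 70 and 68 for CAV1-202, and 18 and 4 for CAV1-203.

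As a whole gene, CAV1 had values that overlapped between groups after scaling to library size, though not in raw counts. It had 35, 34 and 40 counts in the siControl libraries of highest, middle and lowest total, and 41, 46 and 42 in the siDelta2-4 libraries of lowest, middle and highest total. In CPM (counts scaled to a common library size by TMM) the means were 35.0 ± 2.96 under siControl and 36.0 ± 3.30 under siDelta2-4 (SD, n = 3 each), and the values overlapped. The fitted log2 fold change, siDelta2-4 over siControl here and below, was 0.034 ± 0.199 (SE), beside a median of 0.027 over all 3888 genes tested. In that fit 504 genes, 13.0% of those tested, were called at an adjusted p under 0.1 (edgeR quasi-likelihood test, Benjamini-Hochberg), and CAV1 was not among them. In these bulk libraries fewer cells with the message and less message per cell cannot be told apart.

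The alpha model CAV1-201 had 8, 5 and 6 counts under siControl and 22, 17 and 16 under siDelta2-4, in the same order of libraries. Every siDelta2-4 library was above every siControl library. Mean CPM was 6.11 ± 1.54 under siControl and 15.6 ± 4.43 under siDelta2-4 (SD, n = 3 each), a fitted log2 fold change of 1.34 ± 0.369 (SE). Its share of CAV1 counts was 17.5% ± 4.62 under siControl and 42.9% ± 9.33 under siDelta2-4.

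The beta model CAV1-202, the leading model over the 6 libraries, had 22, 22 and 26 counts under siControl and 17, 26 and 25 under siDelta2-4. Its mean CPM of 22.5 ± 2.10 under siControl and 18.7 ± 2.63 under siDelta2-4 (SD, n = 3 each) overlapped between groups, with a fitted log2 fold change of -0.225 ± 0.253 (SE). Its share of CAV1 counts was 64.2% ± 1.16 under siControl and 52.5% ± 9.68 under siDelta2-4. The SD in siDelta2-4 came mostly from the library of lowest total, where CAV1-202 held 41.5% of CAV1 counts and CAV1-201 held 53.7%, so that alpha was the leading model there. In the other siDelta2-4 libraries CAV1-202 led, with 56.5% and 59.5%.

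The short beta model CAV1-203, with the spliced intron, had higher values under siControl, the opposite direction to CAV1-201. It had 5, 6 and 7 counts under siControl and 1, 2 and 1 under siDelta2-4, so the groups did not overlap. Mean CPM was 5.78 ± 0.915 under siControl and 1.11 ± 0.454 under siDelta2-4, and the share of CAV1 counts was 16.5% ± 1.90 and 3.06% ± 1.12 (SD, n = 3 each). It had too few counts to pass the filter of the model fit, so it has no fitted fold change. The share of models without overlap that is given below covers tested models only, and none was computed for models this low. The remaining models, CAV1-204 and CAV1-206, had 1 and 3 counts in all 6 libraries together.

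**Figure D2:**
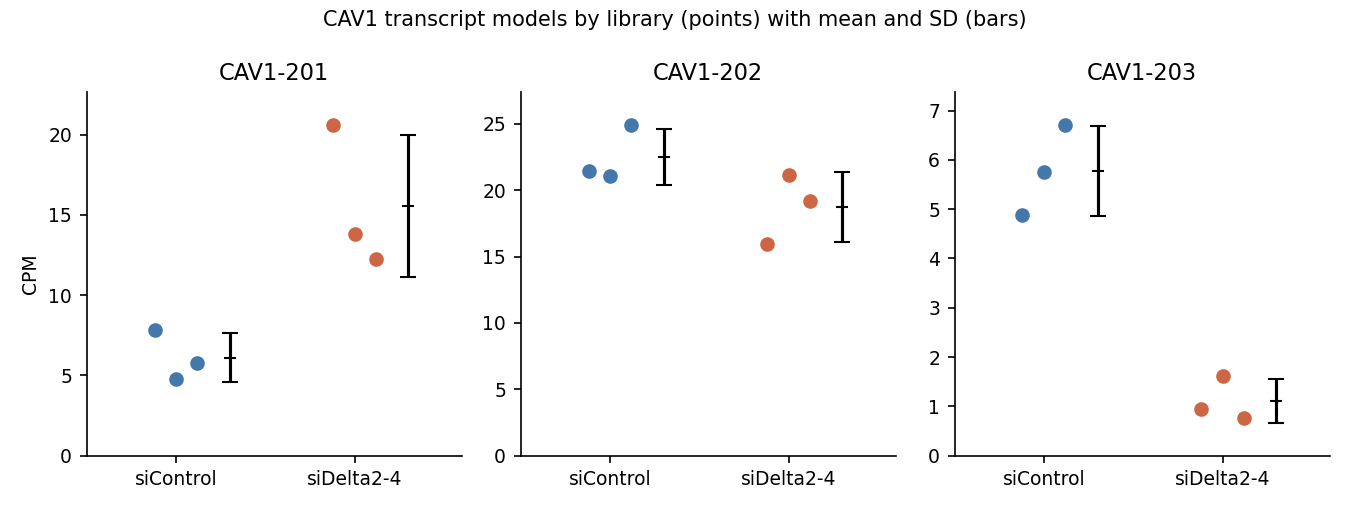
CPM (vertical axis, from 0, with its own scale in each panel) of CAV1-201, CAV1-202 and CAV1-203 in the 6 libraries as points, with the mean and SD of each group (n = 3) as black bars. CAV1-201 lies between 4.79 and 7.80 under siControl and between 12.3 and 20.6 under siDelta2-4, CAV1-202 overlaps, and CAV1-203 lies between 4.87 and 6.70 under siControl and between 0.767 and 1.63 under siDelta2-4.

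The counted models were then grouped by the annotated start codon. Models with the upstream codon (CAV1-201, CAV1-204 and CAV1-206) held 8 of 35, 6 of 34 and 7 of 40 CAV1 counts under siControl, and 23 of 41, 18 of 46 and 16 of 42 under siDelta2-4. These are shares of 22.9%, 17.6% and 17.5% against 56.1%, 39.1% and 38.1%, with means of 19.3% ± 3.05 and 44.4% ± 10.1 (SD, n = 3 each), a difference of 25.1 percentage points. The group shares did not overlap. How often shares within other genes did not overlap was not computed, and the classes were set after the data were seen. The 95% Clopper-Pearson interval of the highest siControl share (10.4% to 40.1%) reached into those of all 3 siDelta2-4 libraries. The lowest of those intervals was 23.6% to 54.4%. These intervals cover counting error only, and reads from a PCR library without molecular identifiers are not independent molecules. The levels of the classes were not tested. The upstream class had a mean CPM of 6.75 ± 1.02 under siControl and 16.1 ± 4.81 under siDelta2-4, and the downstream class 28.3 ± 2.91 and 19.9 ± 2.95. Within the downstream class CAV1-202 overlapped between groups and was not called, and CAV1-203 had 18 counts under siControl and 4 under siDelta2-4. A lower level of the beta models in general is therefore not shown.

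Within the beta models the balance between CAV1-203 and CAV1-202 also differed. A read assigned to CAV1-202 need not cover the intron that this model is annotated to keep. Whether the intron was present in those reads was not tested. CAV1-203 made up 5 of 27, 6 of 28 and 7 of 33 counts of CAV1-202 and CAV1-203 under siControl, and 1 of 18, 2 of 28 and 1 of 26 under siDelta2-4. The mean shares were 20.4% ± 1.62 and 5.51% ± 1.65 (SD, n = 3 each), on 18 and 4 counts of CAV1-203 in all. The 95% Clopper-Pearson intervals of single libraries were wide, 6.3% to 38.1% in the siControl library of highest total and 0.14% to 27.3% in the siDelta2-4 library of lowest total. The values were also compared without CAV1-203, since its 3′ end and its splicing differ at once from CAV1-202. CAV1-201 then held 21.3% ± 4.64 of the counts of CAV1-201 and CAV1-202 under siControl and 45.0% ± 9.89 under siDelta2-4.

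**Figure D3:**
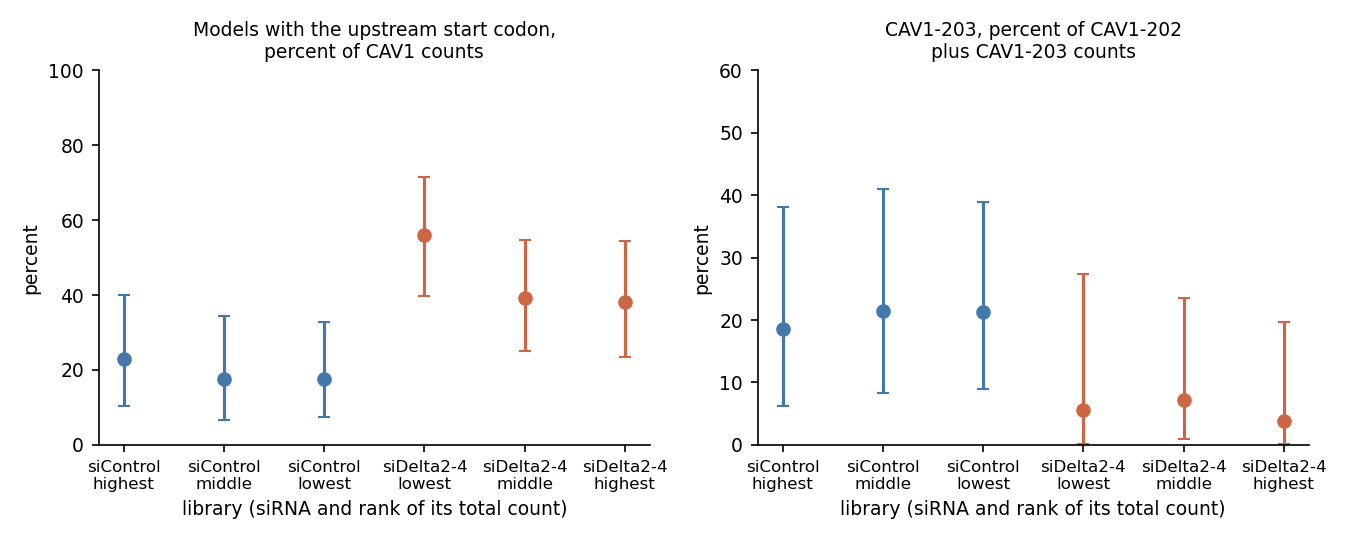
Percent of CAV1 counts on models with the upstream start codon (left), and CAV1-203 as percent of CAV1-202 plus CAV1-203 counts (right), for each library in order of siRNA and rank of total count. Points are shares and bars are 95% Clopper-Pearson intervals of counting error. The siControl points lie at 17.5% to 22.9% on the left and the siDelta2-4 points at 38.1% to 56.1%, while many of the bars overlap in both panels.

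The background for these CAV1 values was taken from the same fits over the whole table. Only 2194 of the 6768 models tested match a reference transcript. Every row without such a match reached 5 counts in each siDelta2-4 library, so most tested models were in effect selected on that group. The shares of models given next mix both kinds of row. They are therefore not a neutral background for a model that is higher in siDelta2-4. Of 6768 transcript models tested, 468 (6.91%) were called at an adjusted p under 0.1, and 267 (3.95%) were called and higher in siDelta2-4. CAV1-201 was 1 of the latter and CAV1-202 was not called. CPM of the groups did not overlap for 1476 models, or 21.8%, and for 1010 genes, or 26.0%. For transcript usage within a gene, 7 of 1132 genes with at least 2 tested models, or 0.618%, were called, and CAV1 was 1 of the 7. As CAV1 was chosen for these values, its place among the calls is a description and nothing is read from it. The usage call rested on every siDelta2-4 library and on 2 of the siControl libraries: of the 6 fits that each leave out 1 library, it stood only without the siControl library of lowest total. The CAV1-201 call was lost without the siControl library of middle total and without the siDelta2-4 library of lowest or of middle total, where its log2 fold change was 1.18, 1.11 and 1.40.

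Lengths are given beside the CAV1 values, with no test across length classes. The median log2 fold change was -0.03 over the 697 annotated models of 500 to 1000 bases that were tested and 0.13 over the 751 of 1000 to 2000 bases. The count-weighted mean length of CAV1 models was 2286 ± 41.3 bases under siControl and 2477 ± 39.3 under siDelta2-4 (SD, n = 3 each), and the group values did not overlap. How often the mean lengths of other genes did not overlap was not computed. The difference of 190.7 bases became -40.7 when models under 5 counts in any library were left out. That rule drops CAV1-203, with 845 bases and 18 and 4 counts in the groups. These are lengths of models, not of reads. Over all models in the table the count-weighted mean length was 1022 ± 17.5 and 1052 ± 9.67 bases. Among the 291 annotated models of 2000 to 3000 bases that were tested, the median log2 fold change was 0.13, with quartiles of -0.07 and 0.37, and 13 were called higher and 4 lower. CAV1-201 and CAV1-202 both fall in this length class, with log2 fold changes of 1.34 and -0.225. The siControl library of lowest total had a mean length over all models of 1042 bases, close to the 1045 to 1063 bases of the siDelta2-4 libraries, and an upstream share in CAV1 of 17.5%. The part that length had in the CAV1 shares was not tested beyond these values.

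**Figure D4:**
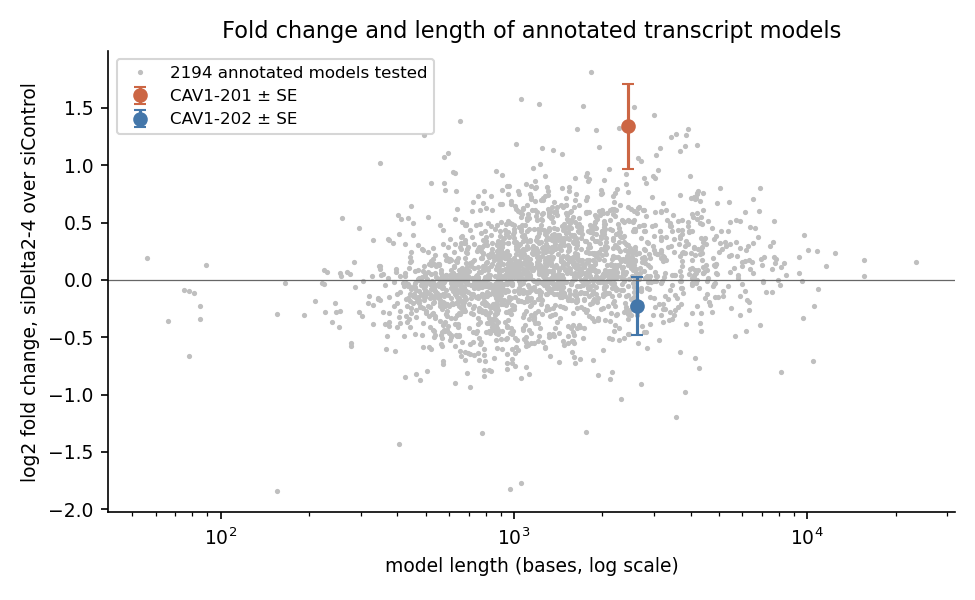
Log2 fold change (siDelta2-4 over siControl) against model length in bases (log scale) for the 2194 annotated models tested, as grey points, with CAV1-201 and CAV1-202 as coloured points with SE bars. The CAV1 points stand at nearly the same length, with CAV1-201 at 1.34 among the highest values and CAV1-202 at -0.225 within the main cloud.

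Because the counted alpha and beta models begin at separate places, sequence upstream of each is shown, from the RefSeq promoter table (GRCh38.p14). That table held 3 CAV1 windows of 300 bases, and those around the starts at 116525036 and 116526362 were used. From each, only the part before the first annotated exon is shown, as chr7:116524786-116524993 for the upstream window and chr7:116526112-116526276 for the downstream window, plus strand. Capitals mark GGGCGG or its reverse complement CCGCCC, the core letters of a GC box.
Upstream window: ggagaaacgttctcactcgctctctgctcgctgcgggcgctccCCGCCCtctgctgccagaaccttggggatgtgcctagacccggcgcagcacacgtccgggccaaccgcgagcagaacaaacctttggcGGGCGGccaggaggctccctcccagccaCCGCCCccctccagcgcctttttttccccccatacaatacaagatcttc
Downstream window: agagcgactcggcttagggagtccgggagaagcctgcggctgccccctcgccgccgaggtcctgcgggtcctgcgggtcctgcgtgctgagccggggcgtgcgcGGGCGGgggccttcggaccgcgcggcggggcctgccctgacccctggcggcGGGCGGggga

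The full upstream window had 61.7% G and C bases and 18 CpG dinucleotides, and the downstream window had 71.0% and 36. The medians over all windows of the table were 58.7% and 14. GGGCGG, searched on both strands, occurred 3 times in the upstream and 2 times in the downstream window, and at least once in 45.0% of 35116 windows. TATAAA and CCAAT, also searched on both strands, occurred in neither CAV1 window, against 11.5% and 34.6% of all windows. The letters are a description of the 2 start regions, and no measurement here bears on what binds them.

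CAV2 (ENSG00000105971.15) lies next to CAV1 on the same strand of chromosome 7, from 116287380 to 116508541, and ends 16452 bases before CAV1 begins. It had 4, 3 and 8 counts in the siControl libraries of highest, middle and lowest total, and 9, 15 and 8 in the siDelta2-4 libraries of lowest, middle and highest total. The groups touched at 8 counts and overlapped in CPM, because the siControl library of lowest total, at 7.66 CPM, was above the siDelta2-4 library of highest total, at 6.14 CPM. Mean CPM was 4.81 ± 2.52 under siControl and 8.92 ± 3.05 under siDelta2-4 (SD, n = 3 each), a log2 ratio of means of 0.89. CAV2 did not pass the filter on low counts and so has no fitted value in that fit. No row of the table lacks a siDelta2-4 count, and with no filter set the median over all 10072 genes was 0.19 on the log2 scale, toward siDelta2-4, so the direction of genes with few counts is not read further. Without the siControl library of lowest total, which held 8 of the 15 siControl counts, the log2 ratio of CAV2 was 1.38.

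Of 15 annotated CAV2 transcripts 4 were counted, and all 4 lie in the part of the gene from 116499738 to 116508541, nearest to CAV1. CAV2-201 (2953 bases, 162 codons), which encodes the full-length protein, had 3, 2 and 7 counts under siControl and 7, 9 and 7 under siDelta2-4. Its share of CAV2 counts was 76.4% ± 10.5 and 75.1% ± 13.9 (SD, n = 3 each). CAV2-214 (787 bases, with no annotated coding sequence) had 2 counts over the siControl libraries and 5 over the siDelta2-4 libraries, and CAV2-202 (776 bases, 112 codons) had 1 and 2. With so few counts no difference in CAV2 model shares was detectable at this depth. In CAV2, in contrast to CAV1, the counted coding models start close together, at 116499738, 116499740 and 116499780, and share their start codon at 116499782.

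The cavins had almost no counts. CAVIN1 (ENSG00000177469.13, chromosome 17, 42402449 to 42423256, minus strand), whose product builds the outer coat of caveolae, had 0 rows. Since no row lacked a count in siDelta2-4, a transcript read in siControl alone has no row, and no limit on the level of CAVIN1 is given. CAVIN3 (ENSG00000170955.10, chromosome 11, 6318946 to 6320532, minus strand) had 1 of 4 annotated transcripts in the table, CAVIN3-204, a transcript of 1025 bases that is annotated as retaining an intron and has no coding sequence. It had 1 count in the siControl library of middle total, 1 in the siDelta2-4 library of middle total and 0 in the others. Both groups were under the floor of 3 counts, so no fold is given. Of the other caveolin and cavin genes, CAV3 and CAVIN4, known from muscle, had no rows, and CAVIN2 had 1 count in the siDelta2-4 library of middle total.

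The counts of genes that overlap or neighbour the members were looked up. Single reads were not examined, so whether reads of an overlapping gene were counted on a member was not tested. The annotated genes that overlap CAV1 (ENSG00000235427), CAV2 (ENSG00000243243, ENSG00000237813 and Metazoa_SRP), CAVIN3 (ENSG00000282556) and CAVIN1 (ENSG00000289579) had no rows. Beyond CAV1 the nearest counted gene was CAPZA2, an actin capping subunit, with 20, 17 and 19 counts under siControl and 23, 33 and 25 under siDelta2-4, and it was not called (log2 fold change 0.32 ± 0.26 SE, edgeR adjusted p = 0.495). On the far side of CAV2 was TES, which encodes a focal adhesion protein, with 1, 2 and 1 counts under siControl and 4, 10 and 4 under siDelta2-4. It was too low to be tested, and nothing is read from the direction of so few counts. The neighbours of CAVIN3, TRIM5 and ARFIP2, had 2 and 27 counts in all, and those of CAVIN1, RAB5C and ATP6V0A1, had 98 and 9.

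Among annotated genes with a mean of at least 50 CPM, those whose log2 CPM varied most like that of CAV1 over the 6 libraries were PHB1 and SDHC, with root mean square differences of 0.046 and 0.048 on the log2 scale. The likeness was one of flatness, as the SD of CAV1 over the 6 libraries was 0.10 and the median difference over the 1070 genes compared was 0.18. For CAV2 the nearest were ENSG00000253754 and SERP1, at 0.196 and 0.199, beside an SD of CAV2 of 0.53. SERP1, an endoplasmic reticulum protein, had a fitted log2 fold change of 0.79 ± 0.20 (SE), given without its test because it was picked for its likeness to a member.

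The wider caveola machinery was examined in 7 lists of 95 genes, of which 41 had rows and 15 passed the filter. Of the 15 tested, 1 was higher and 3 were lower in siDelta2-4 at an adjusted p under 0.1, beside 13.0% called over all genes tested. The median log2 fold change was -0.004, beside 0.027 over all genes tested, and the counts by list below are to be read against the same 13.0%. In the caveola neck list only 1 of 11 genes had a row, the dynamin DNM3, with 7, 11 and 13 counts under siControl and 13, 18 and 15 under siDelta2-4 (log2 fold change 0.36 ± 0.34 SE, not called). None of the EHD and PACSIN genes, which shape the neck of caveolae, had a row. Of 20 binding and signalling partners of caveolin 1, 6 had rows and 1 was tested, the small GTPase RHOA, with a log2 fold change of -0.11 ± 0.14 (SE, not called).

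Among 10 flotillins and related raft proteins, 7 had rows, 3 were tested and 1 was called. FLOT1 had no row and FLOT2, the partner flotillin, had 3 counts, all in the siDelta2-4 library of highest total. STOML2, a mitochondrial member of the family, fell from 79.7 ± 15.9 to 56.4 ± 10.4 CPM (log2 fold change -0.50 ± 0.17 SE, edgeR adjusted p = 0.073). Its counts were 79, 68 and 101 under siControl and 62, 81 and 59 under siDelta2-4, and its CPM overlapped between groups, with the call lost in 6 of 14 alternative fits. These included the fit without the siControl library of lowest total, which held the 101 counts (log2 fold change -0.36, edgeR adjusted p = 0.138). PHB1, a prohibitin and the most counted gene of this list, was at 233.2 ± 18.6 and 233.1 ± 23.3 CPM.

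Cholesterol, which caveolae need, was covered by 24 genes of synthesis and uptake, of which 18 had rows, 7 were tested, 1 was higher and 1 lower. FDPS, the farnesyl diphosphate synthase, had 52, 88 and 85 counts under siControl and 106, 151 and 160 under siDelta2-4, with no overlap. It rose from 72.2 ± 18.7 to 115 ± 13.6 CPM (log2 fold change 0.67 ± 0.16 SE, edgeR adjusted p = 0.0081), and the call stood in all 14 alternative fits. NPC2, which carries cholesterol inside the lysosome, fell from 160 ± 20.8 to 122 ± 18.9 CPM with overlapping values (log2 fold change -0.40 ± 0.13 SE, edgeR adjusted p = 0.055), and this call was lost in 4 of 14. The other tested genes of the list, PMVK, IDI1, FDFT1, MSMO1 and EBP, had log2 fold changes of -0.25 to 0.39 and were not called.

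Clathrin-coated pits, the other main route of uptake from the membrane, were covered by 11 genes, of which 5 had rows and 3 were tested. AP2S1, the small subunit of the AP-2 adaptor, had 106, 136 and 104 counts under siControl and 61, 71 and 89 under siDelta2-4, with no overlap. It fell from 111 ± 16.8 to 61.0 ± 6.29 CPM (log2 fold change -0.86 ± 0.15 SE, edgeR adjusted p = 0.00053), and the call stood in all 14 alternative fits. CLTC, the clathrin heavy chain, and AP2M1, the medium subunit of the same adaptor, had log2 fold changes of 0.05 ± 0.18 and 0.01 ± 0.18 (SE) and were not called. Of 16 genes of the YAP and TEAD pathway, a transcriptional pathway that responds to membrane and cytoskeletal tension, 3 had rows and 0 were tested. The most counted was ANKRD1, a target of the pathway, with 0, 1 and 2 counts under siControl and 5, 8 and 5 under siDelta2-4. As with CAV2 and TES, nothing is read from the direction of so few counts. The called genes of these lists are FDPS, STOML2, NPC2 and AP2S1, and none of them encodes a part of caveolae.

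**Figure D5:**
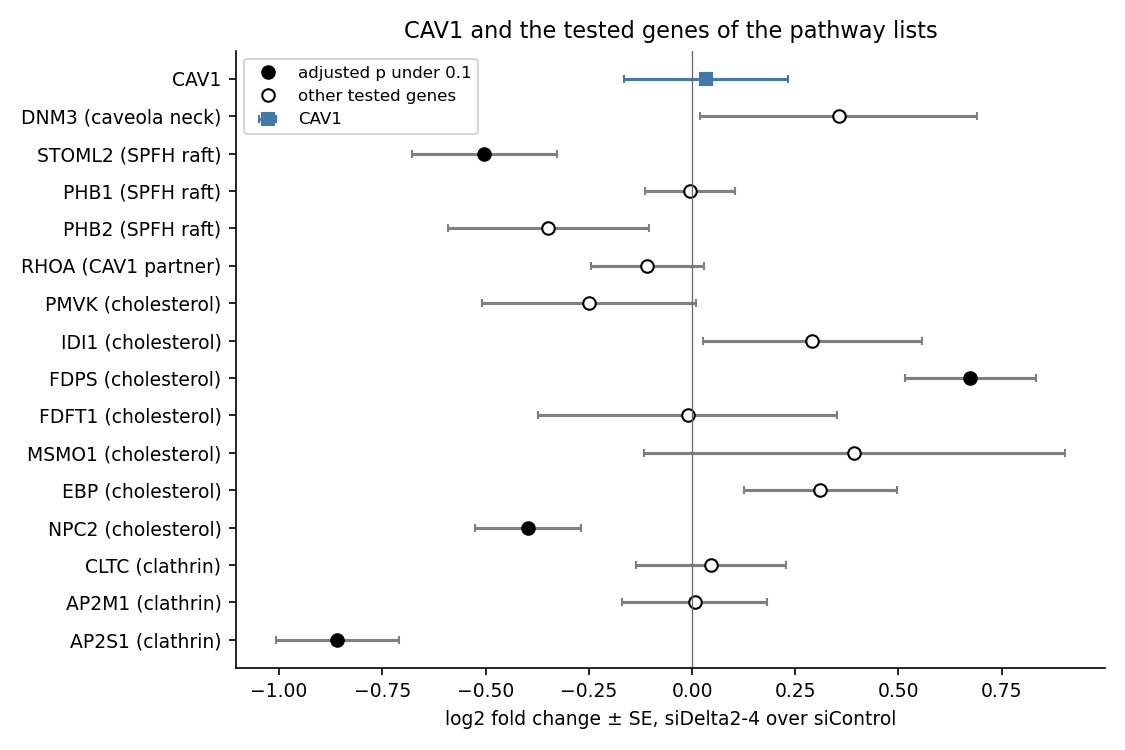
Log2 fold change (siDelta2-4 over siControl) with SE bars for CAV1 (blue square) and the 15 tested genes of the lists, with filled points for genes at an adjusted p under 0.1. FDPS lies at 0.67 and AP2S1 at -0.86, while CAV1 at 0.034 lies near PHB1, CLTC and AP2M1.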

How the data were processed

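PCR-cDNA libraries of Calu-6 polyadenylated RNA were sequenced by the authors on a MinION Mk1c for 72 h. The table deposited by the authors gives, for each transcript model, the number of long reads assigned to it as raw counts. Per the labels and the study's methods, reads were aligned by the authors to GRCh38.p14 (minimap2 2.14, SAMtools 1.13), corrected (TranscriptClean 2.0.3) and annotated against Gencode 44 (TALON 5.0, minimum identity 0.6, coverage 0.8, with a stated filter of 5 reads in 3 samples). Deposited model lengths, in bases, were used as given by the authors. The 6398 rows that match no reference transcript each reached 5 counts in all 3 siDelta2-4 libraries, whereas rows of reference transcripts, CAV1-204 with 1 count among them, did not all pass that filter, and 0 rows were without a siDelta2-4 count.

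Columns were assigned to groups by the siRNA in their names. Counts were summed per gene and tested in R 4.3.3 with the edgeR 4.0.16 package (filterByExpr, TMM, quasi-likelihood fit of the groups without covariates, two-sided, Benjamini-Hochberg, adjusted p under 0.1). The same fit was run on models, and diffSpliceDGE on usage. CPM used TMM-scaled totals of the genes tested, and each SE was computed as the log2 fold change over the root of F. Likeness used log2 CPM (prior count 2). The scripts were tested on simulated data. Alternatives were DESeq2 1.42.0, other scalings and filters, a loess trend on length removed (span 0.4), known models only, a replicate block, an adjusted p under 0.05, and each library left out. The start codon classes, the CAV1-203 share of the beta models and the levels of single CAV1 models were added after seeing the data.

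The members and the gene lists were chosen with earlier results of these data known. The genes named were the members, each called gene and the most counted gene of each list, genes overlapping or neighbouring a member, and the 2 genes most like each member. Models with at least 5% of a member's counts were named. CAV1-204, CAV1-206 and the uncalled or untested genes named from the lists were chosen after their values were seen.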

Additional observations from a re-analysis of the deposited data

How the results depend on the processing

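Genes called numbered 504 (272 higher, 232 lower), 254 with the DESeq2 Wald test (93 higher, 161 lower), 252 with known models only (1854 genes tested in place of 3888), 299 with the replicate block on the column numbers, 304 at an adjusted p under 0.05, and 194 to 1041 with 1 library left out. With library totals alone the split was 361 higher and 152 lower. The highest count came without the siControl library of lowest total, which lay about as near to the siDelta2-4 libraries as to its own group. Models called numbered 468, 294 at an adjusted p under 0.05, 429 with the block, and 173 to 1113 with 1 library left out. Usage genes called numbered 7, 1 at an adjusted p under 0.05, 1 with the block, and 1 to 61 with 1 library left out. List genes called numbered 4, 2 with library totals alone, 2 at an adjusted p under 0.05, and 2 to 4 with 1 library left out. CAV1 lost its usage call under the block, and CAV1-201 kept its call there. As CAV1 was chosen for these values, nothing is read from either. The block served only as 1 of the alternative fits, since same-numbered columns did not deviate together (correlations 0.039, -0.136 and -0.084).

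The log2 fold change of CAV1 kept its sign in 10 of 14 alternative fits and was -0.11 after the length trend was removed and -0.018 to 0.11 with 1 library left out. CAV1 was not called in any of the 14 alternative fits. The log2 ratio of CAV2 was 0.60 to 1.38 with 1 library left out, the highest without the siControl library of lowest total. The CAV1-202 share differed by -11.7 points, by -15.2 to -6.16 with 1 library left out, and by -23.7 when models under 5 counts in any library were left out. That rule drops CAV1-203 and turned the CAV1 mean length difference from 190.7 bases (169 to 214 with 1 library left out) to -40.7, because the models left are CAV1-201 and the longer CAV1-202. The upstream share differed by 19.3 to 28.3 points and the CAV1-203 share of the beta models by -15.8 to -14.0 with 1 library left out. No alternative gave a value for CAVIN1 or CAVIN3, nor the 5-count rule for CAV2. The member counts, at 238 for CAV1 and 47 for CAV2, limit every share given.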
